A study of Homo sapiens with 9 samples.

Results

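The nuclear receptors are transcription factors that sense small lipophilic ligands, and 46 members of the family were followed here in SKNO-1, an established human line of acute myeloid leukaemia with the fusion gene RUNX1-RUNX1T1, also called AML1-ETO. The members were chosen by gene symbol, and all 46 were found among the 25680 symbols of the count files, each taken at the RefSeq transcript with its highest total count. Messenger RNA was sequenced from 9 samples in 3 groups of 3, namely EV, the control, and SH2 and SH3, cells carrying either of the shRNAs against ASXL2. The labels do not explain EV, and the study describes a control shRNA. Every group carried the fusion, was the same cell line, and was grown with GM-CSF per the study's methods. Within each group the labels number the samples 1, 13 and 25 without saying what the numbers stand for. The study's text calls the samples biological triplicates, while the labels do not say whether they were separate cultures, and p values measure the spread between these samples. The labels' text on RNA extraction speaks of bone marrow cells that were sorted, at odds with the cell line they name.

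A typical nuclear receptor has a zinc finger domain that binds DNA and a domain that binds ligand, and it recruits coactivators or corepressors according to whether ligand is present. Many members, among them the retinoic acid, vitamin D, thyroid hormone, PPAR and LXR receptors, bind DNA as heterodimers with a retinoid X receptor (RXR), while the steroid receptors bind as homodimers. In myeloid cells the family is best known for RARA, whose fusion with PML drives acute promyelocytic leukaemia and which responds to all-trans retinoic acid, and for VDR, whose ligand promotes monocytic differentiation.

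The samples held 27714431 to 35406063 counts each with 1 row per gene, so that 3 counts, the limit that a count of 0 allows, stood at 0.0847 to 0.108 CPM, the count scaled to a fixed library total. ASXL2 was at 67.9, 67.9 and 74.7 CPM in EV, at 30.4, 36.2 and 36.2 CPM in SH2, and at 26.9, 29.1 and 41.1 CPM in SH3, all 6 knockdown samples lying below all EV samples (exact permutation test, two-sided, p = 0.0119, the smallest that 84 assignments allow). With assignments kept within the sample numbers the same permutation test gave p = 0.037, also the smallest possible. Of 8 markers of myeloid blasts, 7 passed the count filter, led by MPO at 6368 to 10243 CPM, and RUNX1T1 was at 111 to 138 CPM. CD34 stayed at 0.068 to 0.309 CPM. The summed level of 3 markers each was at most 0.173 CPM for T cells, 0.375 for erythroid cells, 0.165 for fibroblasts and 0.102 for epithelial cells, and 1.70 to 3.34 CPM for B cells, nearly all of it CD79A. SH3 number 1 stood apart from the other libraries, being the highest or the lowest of the 9 samples for 54.9% of the 14199 genes tested, and the receptor calls that rest on it are given with and without it.

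Of the 46 receptors, 28 passed the filter on low counts and were tested, 8 had counts below it, and 10 had no count in any sample. In 13 receptors the level was at least 10 CPM in every sample, in 19 of those tested it was at least 1 CPM in every sample, and in 6 of those tested it was under 1 CPM in every sample. The share of receptors without any count was 21.7%, against 22.5% of all 25680 genes. The order of the levels below is on the scale of CPM per kilobase of transcript in the EV samples (mean ± SD, n = 3). The length is that of the transcript GENCODE marks as canonical for the gene. It need not be the RefSeq transcript that was counted, so the scale corrects for gene length only approximately.

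**Figure D1:**
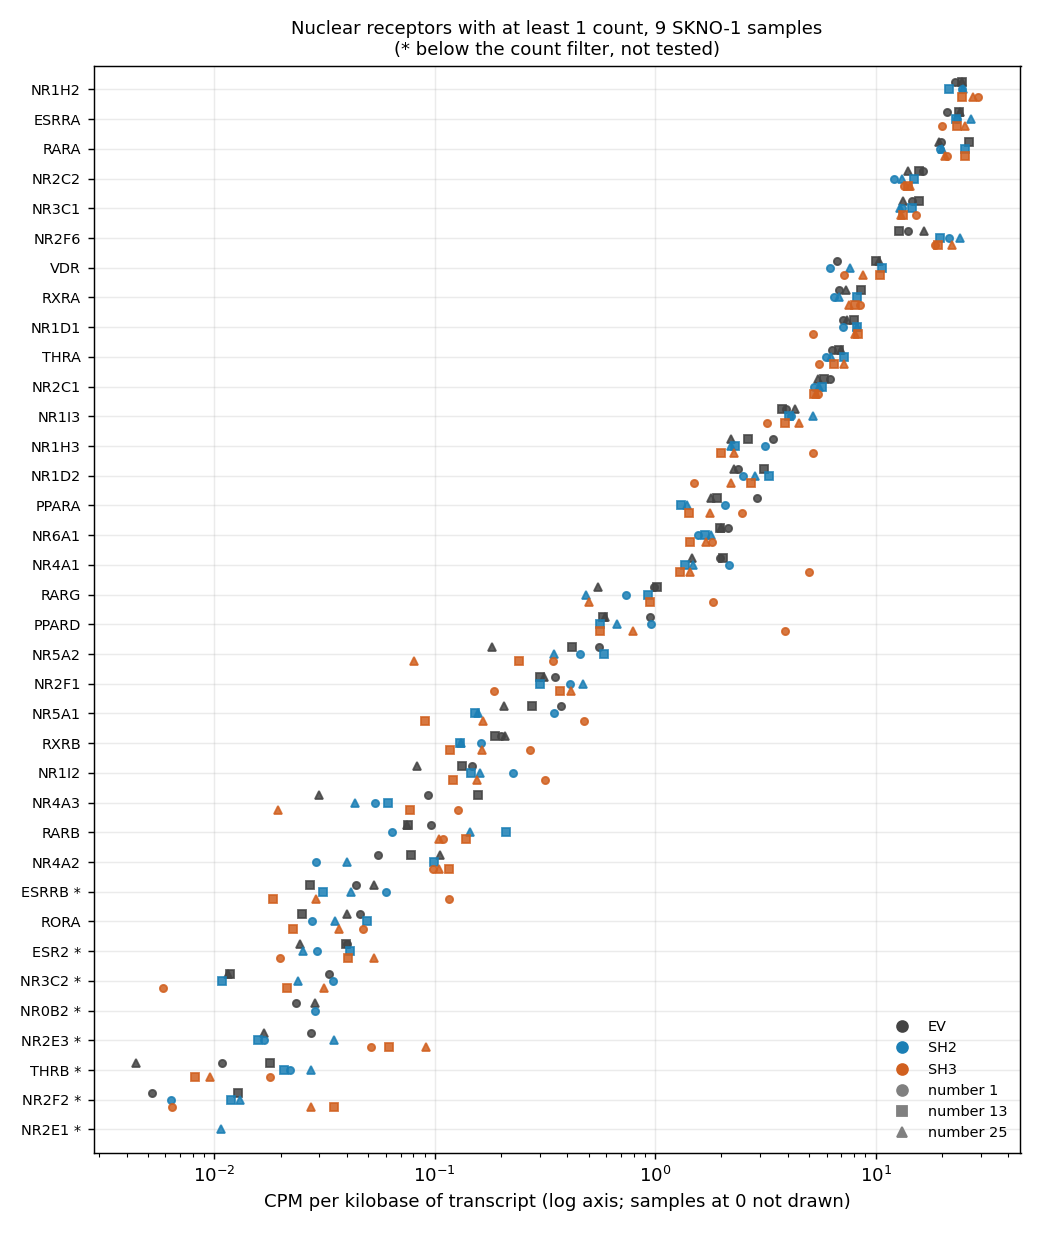
Level of the 36 nuclear receptors with at least 1 count in each of the 9 samples, as CPM per kilobase of transcript on a log axis. Colours give the group and symbols the label number, and a star marks the 8 receptors below the filter. Levels run from over 20 CPM per kilobase for NR1H2 and ESRRA to single counts for NR2E1, and NR2F6 and NR6A1 are the only tested receptors whose EV samples do not overlap the 6 knockdown samples.

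NR1H2, which encodes the oxysterol receptor LXRβ, led the family at 24.04 ± 0.957 CPM per kilobase. ESRRA, the orphan receptor ERRα of mitochondrial energy metabolism, followed at 23.0 ± 1.74, and RARA, the retinoic acid receptor α, at 21.9 ± 4.13. The EV samples of these 3 overlapped, so their order is not resolved. NR2C2, the orphan receptor TR4, stood at 15.4 ± 1.24, NR3C1, the glucocorticoid receptor, at 14.6 ± 1.16, and NR2F6, the orphan receptor also called EAR2, at 14.5 ± 1.97. These 3 again overlapped among themselves, and none of their EV samples reached the lowest EV sample of the leading 3. VDR was next at 9.03 ± 2.05, then RXRA at 7.58 ± 0.890, NR1D1, the haem-sensing clock repressor REV-ERBα, at 7.496 ± 0.467, and THRA, the thyroid hormone receptor α, at 6.72 ± 0.317. NR2C1, NR1I3, NR1H3, NR1D2, PPARA, NR6A1 and NR4A1 filled the range from 5.85 down to 1.82 CPM per kilobase. Counting was without strand, so reads over exons shared with a neighbour on the other strand cannot be assigned. NR2C2 shared 4645 of its 8562 exonic bases with MRPS25, NR1I3 shared 663 with TOMM40L, NR1D1 and THRA shared 473 with each other, NR1H2 shared 467 with NAPSA, ESRRA shared 284 with TRMT112, and NR1H3 shared 189 with ACP2.

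Among the retinoid X receptors, the common partners, RXRA was the member with a readable level. RXRA was at 37.7, 47.4 and 40.8 CPM in EV, at 36.0, 45.4 and 37.8 CPM in SH2, and at 47.0, 44.5 and 41.8 CPM in SH3. The groups overlapped. RXRG had no count in any sample. RXRB, at chr6:33161365-33168442 of GRCh37, received 11 to 23 reads per sample, and was at 0.578, 0.544 and 0.600 CPM in EV, at 0.469, 0.376 and 0.381 CPM in SH2, and at 0.783, 0.340 and 0.473 CPM in SH3. This value cannot be taken as its expression, because its surroundings were nearly empty too: all 10 other protein-coding genes within 100 kb of it were under 1 CPM in every sample, and among them RPS18, which encodes a protein of the small ribosomal subunit that every cell uses, was at 0.035 to 0.125 CPM. Over the stretch from 2000 kb to one side to 250 kb to the other, 80 of 98 such genes were under 1 CPM in every sample. In the same stretch 12 genes were at 1 CPM or more in every sample, among them HLA-C at 24.5 to 63.0 CPM. From 250 to 2000 kb, 7 of 18 genes were under 1 CPM in every sample and 11 were at 1 CPM or more in every sample. Among these 11, HMGA1 was at 490 to 748 CPM and NUDT3 at 84.8 to 99.4 CPM. The reason was not tested.

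**Figure D2:**
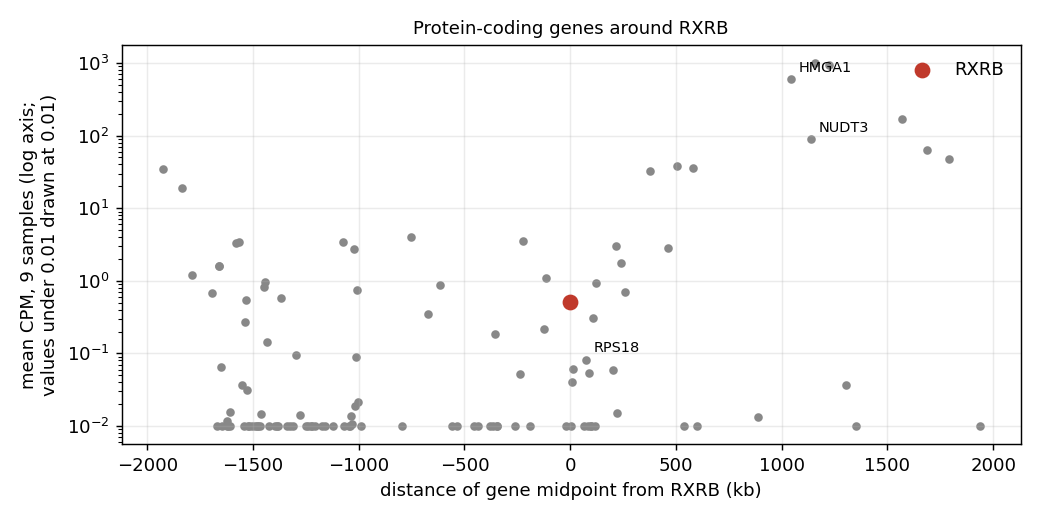
Mean level over the 9 samples, in CPM on a log axis, of protein-coding genes by the distance of their midpoint from that of RXRB in kilobases, with values under 0.01 CPM drawn at 0.01. RXRB and its 10 neighbours within 100 kb lie below 1 CPM, RPS18 among them, whereas HMGA1 and NUDT3 lie near or above 90 CPM.

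Of the 5 receptors for steroids among the 46, namely NR3C1, NR3C2, PGR, ESR1 and ESR2, NR3C1 was the one above 1 CPM. The 10 members with no count were ESR1 and PGR, the receptors of oestrogen and progesterone, PPARG, the adipocyte regulator, HNF4A and HNF4G, regulators of liver and gut genes, NR1H4, the bile acid receptor FXR, RORB, RXRG, ESRRG and NR0B1. The 8 with counts below the filter were ESRRB, ESR2, NR3C2, THRB, NR2E3, NR2F2, NR0B2 and NR2E1, and none of them exceeded 17 counts or 0.579 CPM in a sample. Just inside the filter, NR4A2 had 3 to 13 counts, RORA 8 to 18, RARB 6 to 21 and NR1I2 7 to 26. The SE of the log2 fold change of these 4 in SH2, with the number as a block, was 0.34 to 0.46, against 0.087 for RXRA, so small differences were not detectable at this depth. ESRRB, at 3 to 17 counts, was just outside.

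The study asked what ASXL2, a chromatin protein that binds the histone deubiquitinase BAP1, does in cells with this fusion, and here that question is put to the receptor family. Samples of the same number deviated together, so the test without the numbers is given first and the test with the number as a replicate block beside it. In the test without the block, no receptor and no other gene passed an edgeR adjusted p of 0.05 in any of the 4 contrasts: 0 of 14199 genes, or 0%, in SH2 against EV, in SH3 against EV, in the mean of both against EV, and in SH3 against SH2. At an unadjusted p under 0.05, 1 receptor of 28 passed for SH2, 2 for SH3 and 2 for the mean. Over all genes 762 (5.37%), 723 (5.09%) and 942 (6.63%) passed. DESeq2, as another tool without the block, called 1 receptor, NR2F6, for SH2 and for the mean, and none for SH3, beside 25 (0.176%), 56 (0.394%) and 26 (0.183%) of all genes. With the replicate block, 40 genes (0.282%) passed for SH2, 59 (0.416%) for SH3, 156 (1.1%) for the mean and 15 (0.106%) for SH3 against SH2. NR2F6 was called in the first 3 of these and was the only receptor of 28 called in any of the 4. The median log2 fold change of the receptors in the mean contrast was -0.01, against 0.01 over all genes tested, with 13 receptors above 0 and 15 below.

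**Figure D3:**
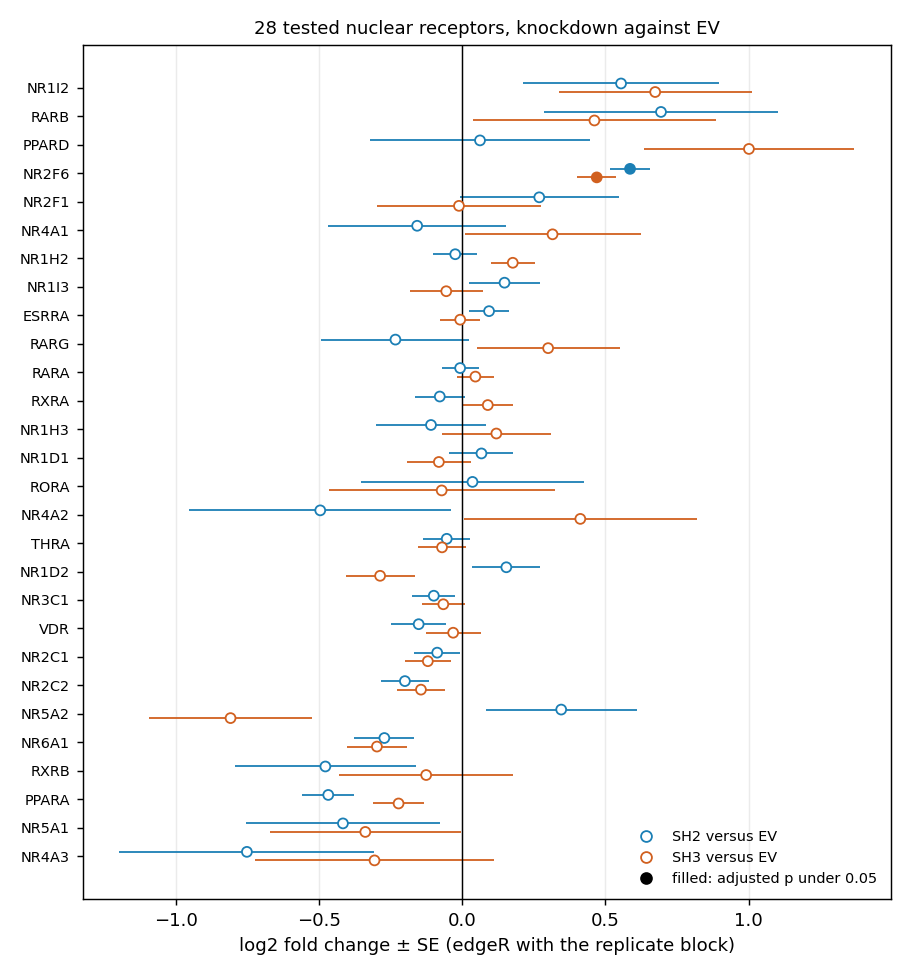
Log2 fold change ± SE of the 28 tested receptors in SH2 (blue) and SH3 (orange) against EV, from edgeR with the replicate block, ordered by the mean of both. Filled points have an adjusted p under 0.05. NR2F6 is filled for both shRNAs, at 0.59 and 0.47, and every other point is open.

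NR2F6 encodes an orphan receptor of the COUP-TF group that acts mainly as a repressor and is known in blood cells for holding back differentiation. Its gene lies at chr19:17342692-17356728 on the minus strand of GRCh37. NR2F6 was at 33.3, 30.5 and 39.7 CPM in EV numbers 1, 13 and 25, at 51.3, 46.5 and 57.4 CPM in SH2, and at 44.2, 45.8 and 53.0 CPM in SH3. All 6 knockdown samples lay above all 3 EV samples, and in each number both knockdowns exceeded their own control. NR2F6 was 1 of 28 receptors with all knockdown samples above all EV samples, a pattern held by 2.16% of all genes tested. With the replicate block NR2F6 rose by 0.59 ± 0.069 (log2, SE) in SH2, which is 1.501-fold (edgeR adjusted p = 0.0165), and by 0.47 ± 0.069 in SH3, which is 1.38-fold (edgeR adjusted p = 0.030). The 2 shRNAs differed by -0.12 ± 0.068 (SH3 minus SH2, edgeR adjusted p = 0.516). Without the block the fold changes were 0.58 and 0.47 with adjusted p of 0.808 and 0.930 (edgeR), and the exact permutation test of the 6 knockdown against the 3 EV samples gave p = 0.0119, the smallest possible, or 0.037 when assignments were kept within numbers, also the smallest possible. These single-gene p values are not adjusted for the choice of NR2F6 among the members. In bulk RNA, more cells with the transcript and more of it per cell cannot be told apart.

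Several measurements limit this result. The transcript of NR2F6 has a GC content of 71.2%, and 221 of its 2383 exonic bases are shared with a readthrough gene on the same strand. When the counts were corrected for transcript length and GC with the block kept, 19 of 12338 genes (0.154%) passed in the mean contrast, with NR2F6 among them at 0.53 (edgeR adjusted p = 0.0459), while the values for SH2 and SH3 apart were 0.57 (adjusted p = 0.065) and 0.50 (adjusted p = 0.0512). Leaving out any EV or SH2 sample, or SH3 number 25, took the adjusted p of the SH2 and SH3 contrasts past 0.05 (edgeR with the block). The highest values were 0.289 for SH2, without SH2 number 25, and 0.150 for SH3, without EV number 1. Few genes of any kind passed in these fits. The share of all genes called ran from 0%, in SH2 without SH2 number 1, to 0.0558%, in SH3 without SH2 number 13. Leaving out all 3 samples numbered 13 or all 3 numbered 25 also ended both calls, with adjusted p of up to 0.611 and 0.247, both without number 25. In the mean contrast the call was lost without any EV sample or SH2 number 1 or 25 (adjusted p of up to 0.145), and without number 13 or 25. The fold change stayed above 0 in all 36 settings tried, from 0.49 to 0.70 for SH2 and from 0.38 to 0.58 for SH3. These settings reuse the same samples, in which every knockdown value lay above every EV value. A change of sign was therefore hardly possible, and the settings add no independent evidence.

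NR6A1, which encodes the germ cell nuclear factor, a repressor of pluripotency genes in early embryos, was at 15.1, 13.8 and 14.005 CPM in EV, at 11.05, 11.8 and 12.7 CPM in SH2, and at 12.8, 10.2 and 12.0 CPM in SH3. It was 1 of 28 receptors with all knockdown samples below all EV samples, against 2.61% of genes tested. The log2 fold change in the mean contrast was -0.29 ± 0.090 with the block (edgeR adjusted p = 0.121) and -0.16 (adjusted p = 0.397) after the length and GC correction. It therefore did not pass the test. Without SH3 number 1 it did, and that library is treated below.

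PPARA, a fatty acid receptor that drives lipid oxidation genes, was at 29.3, 19.3 and 18.2 CPM in EV, at 20.9, 13.3 and 14.1 CPM in SH2, and at 25.1, 14.4 and 17.9 CPM in SH3. The groups overlapped, yet in each number the knockdown samples lay below their own control, by the least in SH3 number 25. The log2 fold change with the block was -0.47 ± 0.091 in SH2 (edgeR adjusted p = 0.0729) and -0.22 ± 0.090 in SH3 (adjusted p = 0.223), and after the length and GC correction it was -0.27 and -0.06. PPARA has a transcript of 10118 bases, the longest of the receptors above 10 CPM. DESeq2 with the block called it in SH2 (adjusted p = 0.00882), among 374 genes (2.63%), and in the mean contrast (adjusted p = 0.027), among 622 genes (4.38%).

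**Figure D4:**
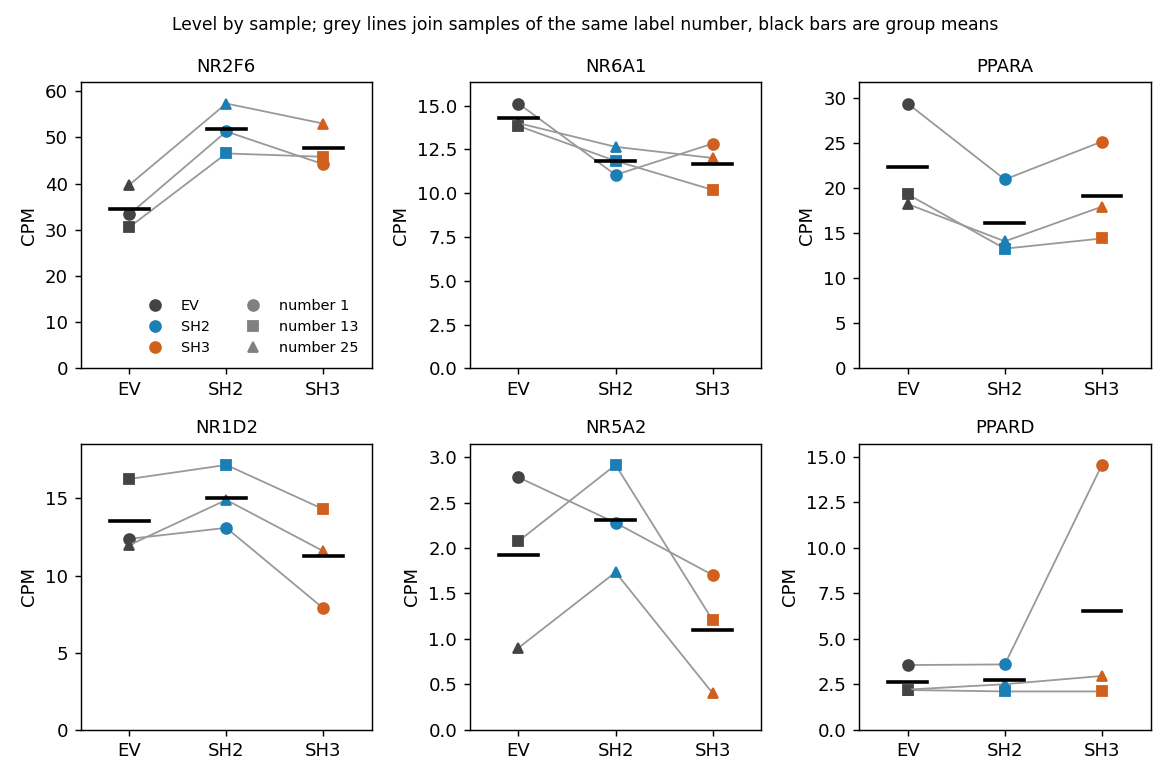
Level in CPM of 6 receptors in each sample, with axes starting at 0. Grey lines join samples of the same label number and black bars mark group means. The lines of NR2F6 all go up from EV to both knockdowns and those of NR6A1 and PPARA all go down, NR1D2 lies above its control in SH2 and below it in SH3 in every number, and PPARD at 14.5 CPM in SH3 number 1 sits apart from the other 8 samples.

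For the other highly expressed receptors no difference passed the test. NR1H2 was at 55.4, 59.5 and 59.4 CPM in EV, at 59.3, 52.2 and 60.2 CPM in SH2, and at 70.7, 59.7 and 67.0 CPM in SH3, so that its 3 SH3 samples lay just above its EV samples, with a log2 fold change of 0.18 ± 0.076 in SH3 (edgeR with the block, adjusted p = 0.250). ESRRA was at 47.9, 54.1 and 55.2 CPM in EV, at 53.4, 52.9 and 61.4 CPM in SH2, and at 45.6, 53.3 and 57.8 CPM in SH3. RARA was at 64.6, 87.4 and 63.3 CPM in EV, at 64.1, 83.6 and 65.7 CPM in SH2, and at 69.4, 83.4 and 67.9 CPM in SH3. In all groups the sample numbered 13 had the most RARA, and the 3 groups covered the same range. NR2C2 was at 139, 132 and 118 CPM in EV, at 102, 126 and 110 CPM in SH2, and at 114, 118 and 120 CPM in SH3, and its log2 fold change in the mean contrast went from -0.17 with the block (edgeR adjusted p = 0.217) to -0.03 (adjusted p = 0.845) after the length and GC correction. NR3C1 was at 99.6, 106 and 90.6 CPM in EV, at 89.8, 98.8 and 87.7 CPM in SH2, and at 104, 90.6 and 88.4 CPM in SH3. VDR was at 30.8, 46.5 and 47.8 CPM in EV, at 28.7, 49.2 and 35.2 CPM in SH2, and at 33.0, 48.3 and 40.5 CPM in SH3. THRA was at 33.1, 35.4 and 36.3 CPM in EV, at 31.0, 37.4 and 32.7 CPM in SH2, and at 28.9, 33.8 and 37.5 CPM in SH3. Other than for NR1H2 in SH3, the groups of these 7 receptors overlapped, and none of the 7 passed an edgeR test against EV with or without the block.

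The clock repressors NR1D1 and NR1D2, which encode REV-ERBα and REV-ERBβ, were both lowest in SH3 number 1, and neither was called against EV. NR1D1 was at 18.6, 21.1 and 19.4 CPM in EV, at 18.7, 21.8 and 21.7 CPM in SH2, and at 13.6, 21.8 and 21.3 CPM in SH3. NR1D2 was at 12.4, 16.3 and 12.0 CPM in EV, at 13.1, 17.2 and 14.9 CPM in SH2, and at 7.87, 14.3 and 11.6 CPM in SH3. In every number NR1D2 was above its control in SH2, by as little as 0.079 on the log2 scale, and below it in SH3, by as little as 0.048 (a log2 value of -0.048), and SH3 minus SH2 was -0.44 ± 0.121 (log2, edgeR with the block, adjusted p = 0.209). RORA, an activator at the same DNA elements, had 8 to 18 counts per sample.

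The immediate early receptors NR4A1, NR4A2 and NR4A3, which are induced without ligand by many stimuli, were low. NR4A1 was at 4.90, 5.07 and 3.63 CPM in EV, at 5.39, 3.38 and 3.71 CPM in SH2, and at 12.5, 3.21 and 3.57 CPM in SH3, with SH3 number 1 well above the other 8 samples. NR4A2 was at 0.193, 0.272 and 0.367 CPM in EV, at 0.1005, 0.345 and 0.139 CPM in SH2, and at 0.340, 0.401 and 0.364 CPM in SH3. NR4A3 was at 0.523, 0.884 and 0.167 CPM in EV, at 0.301, 0.345 and 0.243 CPM in SH2, and at 0.715, 0.432 and 0.109 CPM in SH3. The groups of both overlapped, on 3 to 26 counts. NR5A2, an orphan receptor known from liver and embryonic stem cells, was at 2.78, 2.08 and 0.90 CPM in EV, at 2.28, 2.91 and 1.73 CPM in SH2, and at 1.70, 1.20 and 0.40 CPM in SH3. All 3 SH2 samples of NR5A2 exceeded all SH3 samples, with SH3 minus SH2 at -1.16 ± 0.283 (log2, edgeR with the block, adjusted p = 0.161), on 11 to 101 counts.

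The promoters of 3 receptors whose samples fell into a pattern are shown here, NR6A1 for its lower knockdown levels, NR1D2 for samples above their control in SH2 and below it in SH3, a difference that did not pass the test, and PPARD for its level in SH3 number 1. The sequences are RefSeq windows of build GRCh38.p14, from 250 bases before to 50 after a start site, read 5′ to 3′ on the strand of the gene, at chr9:124771262-124771561 (minus strand) for NR6A1, chr3:23945871-23946170 (plus) for NR1D2 and chr6:35342308-35342607 (plus) for PPARD. Capitals mark the E-box CACGTG, the site of the clock activators and of MYC, and the core TGACGT of the cyclic AMP response element (CRE) on either strand.
NR6A1: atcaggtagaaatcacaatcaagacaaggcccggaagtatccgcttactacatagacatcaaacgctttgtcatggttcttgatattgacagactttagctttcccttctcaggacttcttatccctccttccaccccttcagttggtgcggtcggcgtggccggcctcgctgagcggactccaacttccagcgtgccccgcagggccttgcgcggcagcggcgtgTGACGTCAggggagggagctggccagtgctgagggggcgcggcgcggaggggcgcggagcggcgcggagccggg
NR1D2: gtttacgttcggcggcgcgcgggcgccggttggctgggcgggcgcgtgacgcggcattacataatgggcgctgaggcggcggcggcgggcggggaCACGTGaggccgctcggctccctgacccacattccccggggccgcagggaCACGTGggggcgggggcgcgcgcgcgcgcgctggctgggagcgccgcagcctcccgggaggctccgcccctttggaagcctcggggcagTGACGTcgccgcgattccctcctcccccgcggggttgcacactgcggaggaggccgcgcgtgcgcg
PPARD: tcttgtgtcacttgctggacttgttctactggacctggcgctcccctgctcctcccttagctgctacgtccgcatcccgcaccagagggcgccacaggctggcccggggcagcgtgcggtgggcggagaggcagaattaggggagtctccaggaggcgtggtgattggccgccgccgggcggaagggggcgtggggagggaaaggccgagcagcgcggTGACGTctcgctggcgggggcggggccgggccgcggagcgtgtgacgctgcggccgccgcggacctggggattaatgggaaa
The capitals in NR6A1 form 1 complete CRE, TGACGTCA, in which the cores of both strands overlap. This window of NR1D2 held 2 E-boxes and 1 CRE core, whereas a further window of the gene, at chr3:23945036-23945335, held neither, and PPARD held 1 CRE core. Windows were given for 41 of the 46 members, 96 in all, and not for NR2F6. The E-box was in 9 of these 96 (9.38%) and in 7.26% of all 35116 windows, the CRE core in 7.29% against 7.98%, the half-site AGGTCA, to which receptors of this family bind, in 16.7% against 13.8%, and the RUNX site TGTGGT in 10.4% against 13.1%. All were searched on both strands. Other receptors with like patterns held neither the E-box nor the CRE core in any window. These were PPARA, lower in the knockdowns, and NR5A2, higher in SH2 than in SH3. NR4A1, NR1H3, RARG, NR1I2, NR1H2 and RXRB, all highest in SH3 number 1, also belonged to them. NR5A1, also highest in SH3 number 1, held 1 E-box, and NR4A3, without such a pattern, held 3 CRE cores. A match is a description of the letters, a link to the levels was not tested, and the shares of the family lay near those of all windows.

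Sample number was the larger source of difference. In samples numbered 1 against 13 and 25, edgeR with group and number in the fit called 6570 of 14199 genes (46.3%) and 14 of the 28 receptors (8 higher, 6 lower), which is near the background. For number 25 against 13 it called 833 genes (5.87%) and 2 receptors, RARA, lower by 0.37 on the log2 scale (adjusted p = 0.0119), and NR2F6, higher by 0.29 (adjusted p = 0.0341). The receptors higher in number 1 were PPARD, NR5A1, NR4A1, NR1H3, NR1I2, NR5A2, RARG and PPARA. Those lower were VDR, NR1D2, NR1D1, THRA, ESRRA and RARA. In RARA the samples numbered 1, at 64.1 to 69.4 CPM, overlapped those numbered 25, at 63.3 to 67.9 CPM. They were lower than the samples numbered 13 alone, which stood at 83.4 to 87.4 CPM.

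4 of the higher ones not yet given in full were low in level. NR1H3 was at 6.35, 4.90 and 4.10 CPM in EV, at 5.83, 4.26 and 4.09 CPM in SH2, and at 9.64, 3.67 and 4.22 CPM in SH3. RARG, the retinoic acid receptor γ, was at 2.89, 2.96 and 1.60 CPM in EV, at 2.14, 2.70 and 1.42 CPM in SH2, and at 5.35, 2.78 and 1.46 CPM in SH3. In RARG the samples numbered 1 stood above those numbered 13 in SH3 and below them in EV and SH2, and its call for number 1 (0.70 ± 0.213, edgeR adjusted p = 0.0219) was lost without SH3 number 1 (0.28, adjusted p = 0.216). NR5A1, the steroidogenic factor SF-1 of adrenal and gonad, was at 1.16, 0.850 and 0.634 CPM in EV, at 1.07, 0.470 and 0.485 CPM in SH2, and at 1.46, 0.278 and 0.510 CPM in SH3. Its samples numbered 1 lay above all others, with a difference of 1.21 ± 0.277 (edgeR adjusted p = 0.00583), or 0.87 (adjusted p = 0.0301) without SH3 number 1. NR1I2, the xenobiotic receptor PXR, was at 0.413, 0.374 and 0.233 CPM in EV, at 0.636, 0.407 and 0.451 CPM in SH2, and at 0.885, 0.340 and 0.437 CPM in SH3, and its call (0.76 ± 0.274, edgeR adjusted p = 0.0418) was likewise lost without SH3 number 1 (adjusted p = 0.269).

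In VDR and PPARA the difference by number did not rest on SH3 number 1. VDR was 28.7 to 33.0 CPM in the 3 samples numbered 1 and 35.2 to 49.2 CPM in the other 6, a log2 difference of -0.53 ± 0.085 (edgeR adjusted p = 0.00118), and PPARA was 20.9 to 29.3 CPM against 13.3 to 19.3 CPM, a difference of 0.63 ± 0.076 (adjusted p = 0.000372). In both receptors the samples numbered 1 did not overlap the rest. Without SH3 number 1 the differences were -0.58 (adjusted p = 0.000308) and 0.63 (adjusted p = 0.000161).

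PPARD, a receptor for fatty acids that is present in most tissues, owed much of its difference to that single library. PPARD was at 3.55, 2.18 and 2.20 CPM in EV, at 3.58, 2.10 and 2.495 CPM in SH2, and at 14.5, 2.10 and 2.95 CPM in SH3. Its number difference was 1.41 ± 0.303 with all samples and 0.67 ± 0.160 without SH3 number 1 (edgeR adjusted p of 0.00424 and 0.00595), and its SH3 fold change without the block went from 1.30 to -0.08. NR4A1 went from 0.94 (adjusted p = 0.0133) to 0.38 (adjusted p = 0.0788), and NR1H3, which encodes LXRα and was at 9.64 CPM in SH3 number 1 against 3.67 to 6.35 CPM in the others, from 0.77 to 0.49. SH3 number 1 was the highest sample for 8 receptors and the lowest for 6, together 14 of 28, again near the 54.9% of all genes. Without it 7 receptors were called for number 1 in place of 14, namely NR1H3, NR5A1, PPARA, PPARD, RARA, RXRA and VDR, beside 4813 of 14291 genes (33.7%) in place of 46.3%. For number 25 against 13, 7 receptors were called in place of 2, beside 2750 genes (19.2%) in place of 5.87%. With the block 3 receptors were called in the mean contrast against EV, which were NR2F6, NR6A1 and PPARA, among 1755 genes (12.3%) in place of 156.

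**Figure D5:**
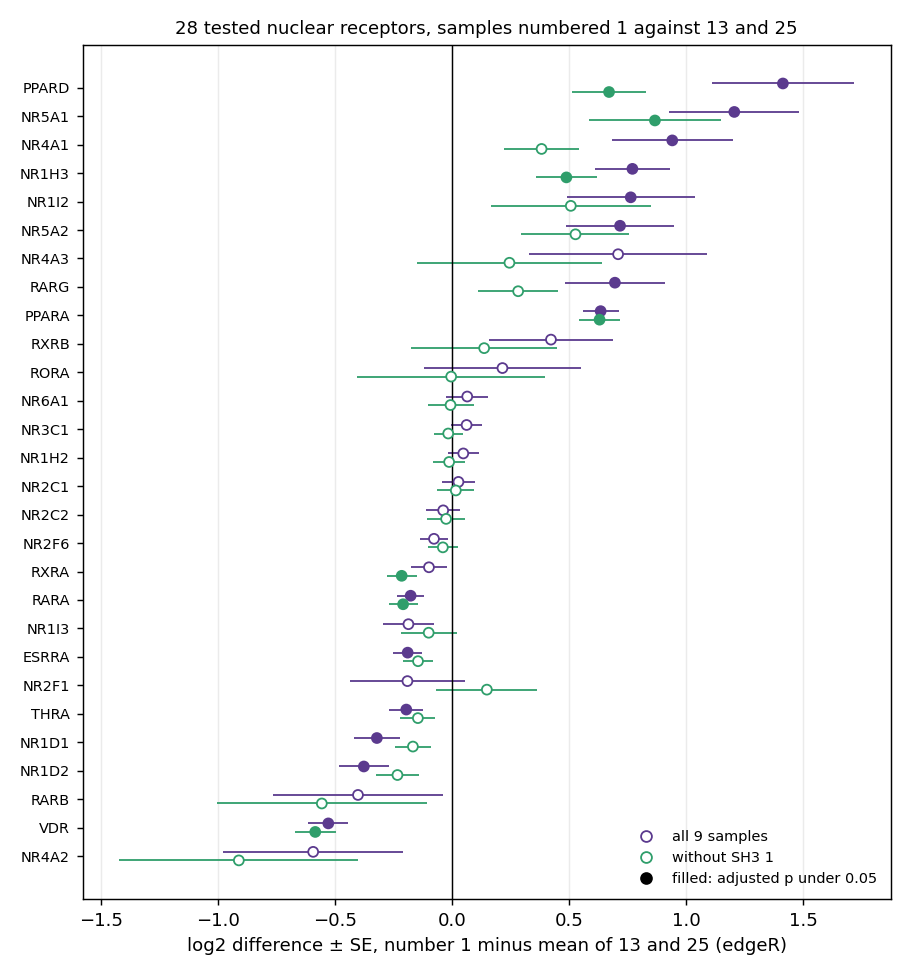
Log2 difference ± SE of the 28 tested receptors between samples numbered 1 and the mean of those numbered 13 and 25, from edgeR with group in the fit, with all 9 samples (purple) and without SH3 number 1 (green). Filled points have an adjusted p under 0.05, and PPARD falls from 1.41 to 0.67 while VDR and PPARA hardly move.

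Genes that work with the receptors or respond to them, and those of the ASXL and BAP1 complex, were taken from 13 lists of 221 genes, and 173 of these were tested. With the replicate block, 7 of the 173 were called in the mean contrast, 6 lower, ASXL2 itself among them, and 1 higher, beside 1.1% of all genes tested. After the length and GC correction 2 of 171 were called, ASXL2 and CEBPD, beside 0.154% of all genes. In the list of coactivators 22 of 23 genes were tested, 2 fell and none rose, with a median log2 fold change of -0.17 against 0.01 for all genes, or -0.08 after the length and GC correction. NCOA1, which encodes the steroid receptor coactivator SRC-1, was at 43.3, 44.4 and 40.7 CPM in EV, at 31.7, 36.1 and 28.004 CPM in SH2, and at 29.2, 37.5 and 33.1 CPM in SH3, and fell by 0.40 on the log2 scale (edgeR adjusted p = 0.0412). NCOA2, its paralogue, was at 32.9 to 39.2 CPM in EV and at 20.1 to 35.6 CPM in the knockdown samples, and fell by 0.44 (edgeR adjusted p = 0.0488). Of 19 corepressors, all tested, 1 fell and the median was -0.03. SPEN, a large RNA-binding corepressor also called SHARP, was at 213, 204 and 212 CPM in EV, at 125, 170 and 152 CPM in SH2, and at 136, 141 and 186 CPM in SH3, and fell by 0.48 (edgeR adjusted p = 0.0472). These transcripts are long, at 7381, 8430 and 12385 bases, and after the length and GC correction none was called, with -0.28 (adjusted p = 0.136), -0.30 (adjusted p = 0.116) and -0.26 (adjusted p = 0.125). The cause of this dependence on length and GC was not tested.

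Among ligand responses, 17 of 19 glucocorticoid receptor targets were tested, with 1 up and 1 down in the mean contrast and a median of 0.07. The median was -0.09 in SH2, with 6 genes above 0 and 11 below and none called, and 0.20 in SH3, with 14 above and 3 below and 1 called, and no gene of the list was called in SH3 against SH2. The medians of the lists were not computed without SH3 number 1, so how far the SH3 value rests on that library is not known. CEBPD, a transcription factor induced by glucocorticoids, was at 25.1, 18.5 and 26.6 CPM in EV, at 35.3, 23.6 and 32.0 CPM in SH2, and at 45.7, 28.9 and 37.1 CPM in SH3, and rose by 0.51 (edgeR adjusted p = 0.0291), or 0.45 (adjusted p = 0.0496) after the length and GC correction. FKBP5, a chaperone of the steroid receptors and itself a glucocorticoid target, was at 141, 156 and 142 CPM in EV and at 105 to 127 CPM in the 6 knockdown samples, and fell by 0.28 (edgeR adjusted p = 0.0482), and after the length and GC correction the fold change was again -0.28, with an adjusted p of 0.0837 (edgeR) that missed the threshold. It was also the 1 gene called of 15 steroid receptor chaperones, whose median was 0.03. Both genes are induced by glucocorticoids and here they moved in opposite directions, with the receptor NR3C1 itself not called. They were named because they were called among the 17 tested, and the activity of the receptor was not tested.

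Of 11 LXR targets tested from a list of 17, with a median of -0.13 in the mean contrast, ABCA1, the cholesterol exporter, was called in SH2 against EV. It was at 9.16, 13.2 and 9.30 CPM in EV, at 5.12, 7.40 and 4.64 CPM in SH2, and at 7.29, 8.62 and 9.39 CPM in SH3, and fell by 0.88 in SH2 (edgeR adjusted p = 0.0428). In SH3 its log2 fold change was -0.31 (edgeR adjusted p = 0.278) and in the mean contrast -0.60 (adjusted p = 0.0506), and SH3 against SH2 gave no call. Of 12 clock genes tested, with a median of -0.03, PER3, a period gene repressed within the clock loop, was at 10.1, 10.3 and 10.7 CPM in EV and at 6.21 to 8.19 CPM in the knockdown samples, and fell by 0.54 (edgeR adjusted p = 0.0396). After the length and GC correction ABCA1 in SH2 was at -0.69 (edgeR adjusted p = 0.106) and PER3 in the mean contrast at -0.44 (adjusted p = 0.0855), and neither passed. In the 12 genes of the ASXL and BAP1 complex 11 were tested, with a median of -0.14, or -0.04 after the length and GC correction, and ASXL2 alone was called.

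In the remaining 6 lists no gene was called against EV. Their medians in the mean contrast with the block were 0.09 for 17 PPAR targets, 0.35 for 6 VDR targets, -0.07 for 11 genes of retinoid handling and RAR response, -0.01 for 8 of thyroid hormone handling and response, 0.12 for 15 oestrogen receptor and ERR targets and 0.09 for 16 genes of cholesterol and ligand synthesis, beside 0.01 for all genes.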

How the data were processed

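Per the labels and the study's methods, poly(A) RNA libraries without strand information were sequenced, and the submitters' processing notes name STAR, featureCounts, DESeq2 and the build hg19. The deposited values are whole-number counts per RefSeq transcript, not normalized by the authors, in 48104 rows per sample, and reads shared by isoforms were counted in each row. The row with the highest total stood for each gene, and 36 of the 46 receptors had more than 1 row. Genes were filtered with filterByExpr (minimum count 10, minimum total 15), scaled by TMM and tested with edgeR 4.0.16 (quasi-likelihood, Benjamini-Hochberg over all 14199 genes) in R 4.3.3 on all 9 samples, with group alone or with group and number. The numbers were taken to pair the samples because every one of the 9 same-number pairs had correlated deviations from the group means (r from 0.398 to 0.731, mean 0.60), the labels being the source of the numbers. The other pairs ran from -0.616 to 0.306, with a mean of -0.29. Centring each group on its own mean pushes these pairs below 0 when same-number pairs correlate, so their mean is no independent comparison. No 2 samples of the same group agreed within sampling noise. Transcript lengths and GC came from the canonical transcript of each gene in GENCODE for GRCh37, not from the RefSeq row that was counted. DESeq2 1.42.0 and the other alternatives are given in the closing section. Without molecular identifiers, a floor of 3 counts covers no error but that of counting.

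The 46 members and the 13 lists were chosen with earlier results of these data known. The receptors given in full were those called in any contrast (number contrasts included), the 10 with the highest EV level per kilobase, the RXR, NR4A and REV-ERB genes and those near the filter, and genes of the lists were named where called. NR6A1, PPARA, PPARD, NR5A2 and the 3 promoters were chosen after their values were seen.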

Additional observations from a re-analysis of the deposited data

Results flagged for a closer look

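NR1D2, the gene of REV-ERBβ, was higher than its same-number control in all 3 SH2 samples and lower in all 3 SH3 samples, though neither shRNA passed the test against EV and the pair values came as close to 0 as 0.079 and -0.048 on the log2 scale. The difference SH3 minus SH2 was -0.44 on the log2 scale in edgeR with the replicate block, where it missed the threshold over all genes (adjusted p = 0.209), and -0.42 without the block (adjusted p = 0.998). The largest of the 3 SH3 shifts, -0.65, was in SH3 number 1, the library that stands apart.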

How the results depend on the processing

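In edgeR, receptors were called against EV in the fits with the replicate block. Without it edgeR called 0 receptors in every contrast, also with DESeq2 size factors, without the filter, with rows summed and with any sample or number left out. The paired fit with the replicate block called 1 (NR2F6) for SH2, 1 for SH3 and 1 for the mean of both. The shares of all genes were 0.282%, 0.416% and 1.1%. The block changed no receptor call in SH3 against SH2. DESeq2 without the block called 1 for SH2 and 1 for the mean, beside 0.176% and 0.394% of all genes. DESeq2 with it called 2, 1 and 2, PPARA being the second, beside 2.63%, 3.34% and 4.38%. With the block, the length and GC correction left 0 for SH2, 0 for SH3 and 1 for the mean, beside 0.0324%, 0.0973% and 0.154% of all genes. Dropping the filter gave 2, 1 and 2 and 1 in SH3 against SH2 (NR5A2), beside 1.54%, 2.06%, 2.83% and 0.814%. Summing rows gave 0, 0 and 1, beside 0.0275%, 0.179% and 0.261%. The fits with the block that drop the filter, sum rows or leave out a number were added after seeing the data. Leaving out a sample or number from the fit with the block gave 0 to 2 receptors for SH2, 0 to 1 for SH3, 0 to 3 for the mean and 0 to 1 for SH3 against SH2. The shares of all genes in these fits ran, in the same order, from 0% to 11.2%, from 0.00696% to 2.58%, from 0.007% to 12.3% and from 0% to 1.79%. Over all genes the mean contrast had 0 calls without the block, 156 with it, 56 by DESeq2 and 622 by DESeq2 with the block.

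For number 1 against 13 and 25, the 14 receptors (beside 46.3% of all genes) became 15 with the length and GC correction (52.6%). They became 13 without the filter (32.6%), 12 by DESeq2 (40.7%) and 9 without the group term (36.6%). With a sample left out they were 7 to 11, beside 33.7% to 43.8% of all genes. There were 7 without SH3 number 1 (33.7%) or SH3 number 25 (37.6%), and 9 without EV number 1 (39%). For number 25 against 13, the 2 (beside 5.87% of all genes) became 1 without the group term (2.14%), 4 by DESeq2 (6.91%), 4 without the filter (5.36%) and 1 with the length and GC correction (7.25%). With a sample left out they were 0 to 7, beside 0.348% to 19.2% of all genes, with 7 without SH3 number 1 (19.2%). The fold change of PPARA in SH3 without the block ranged from -0.47 to 0.0301 with a sample left out, turning without EV number 1, and that of PPARD from -0.081 to 1.72, turning without SH3 number 1. ASXL2 in the mean contrast was at -1.08 without the block, where it missed the threshold, and passed it with the block (-1.09), with the block and the length and GC correction (-0.90), by DESeq2 (-1.07) and by DESeq2 with the block (-1.09), and it ranged from -1.18 to -1.001 with a sample or number left out. The 28 receptors that passed the filter became 21 at 1 CPM or more in all 3 samples of a group and 31 with rows summed. The causes were not tested. Receptors under 1 CPM rest on few counts, and RXRB on a region with almost no reads.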
